A study of Mus musculus with 60 samples.

Results

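Splicing factors of the SR (Srsf), SF3 and hnRNP families were followed through the maturation of mouse fetal liver erythroblasts, the nucleated precursors of red cells, in Gata1s and wild type embryos. The genes were taken from a deposited table of normalised counts wherever a symbol began with Srsf and a digit, with Sf3a or Sf3b and a digit, or with Hnrnp. This gave 37 of 23393 genes, with 11 in the Srsf family, 8 in the Sf3 family and 18 in the Hnrnp family. Of these, 36 had a mean of at least 50 normalised counts and were tested together with the other expressed genes, 9016 in all. Srsf12, at 0 to 9.44 normalised counts over the 20 libraries, was not tested.

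Gata1s cells make a form of the transcription factor GATA1 that lacks its N-terminal part, and the study asked what that part does in red cell development. Cells of C57BL/6 fetal livers were sorted at the embryonic days E14.5 and E12.5 into the R3 gate, which is high in the transferrin receptor CD71 and in the erythroid antigen Ter119, and the earlier R1/2 gate, which is high in CD71 with absent to intermediate Ter119. The RNA libraries were 2 Gata1s and 2 wild type at E14.5 R3, 3 Gata1s and 2 wild type at E14.5 R1/2, 2 Gata1s and 3 wild type at E12.5 R3, and 4 Gata1s and 2 wild type at E12.5 R1/2. How the allele was made, and whether libraries came from separate embryos or from pools, is not given in the labels, so p-values measure the spread between these libraries, which may be technical.

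SR proteins bind exonic enhancers through RNA recognition motifs and recruit the splicing machinery through a domain rich in arginine and serine. SF3a and SF3b are the multi-subunit parts of the U2 small nuclear ribonucleoprotein (snRNP) that hold it on the intron's branch site. The hnRNP proteins coat nascent transcripts, often repress nearby splice sites, and also act in mRNA export and stability. Late erythroblasts are known to change the splicing of many transcripts while their nuclei condense and much of their transcription falls away.

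The upstream promoter sequences of 4 genes are shown because these genes were at opposite ends of their families between the gates, Srsf5 and Hnrnph2 being the members with increases and Srsf7 and Hnrnpa0 the members with decreases. Each line gives 250 bases upstream of the gene's start on the gene's own strand, from RefSeq on GRCm38.p6, at chr12:80945249-80945498 (plus strand) for Srsf5, chr17:80207306-80207555 (minus strand) for Srsf7, chrX:134600929-134601178 (plus strand) for Hnrnph2 and chr13:58128557-58128806 (minus strand) for Hnrnpa0. Capitals mark matches, on either strand, to the GATA motif, spelled as A or T, then GATA, then A or G, or to CCNCNCCC, the CACC-type letters known for KLF1.
Srsf5: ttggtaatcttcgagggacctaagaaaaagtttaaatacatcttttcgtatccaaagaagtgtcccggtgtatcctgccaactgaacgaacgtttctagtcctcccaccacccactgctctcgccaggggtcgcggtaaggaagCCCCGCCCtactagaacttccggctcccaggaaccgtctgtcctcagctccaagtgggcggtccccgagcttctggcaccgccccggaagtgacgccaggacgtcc
Srsf7: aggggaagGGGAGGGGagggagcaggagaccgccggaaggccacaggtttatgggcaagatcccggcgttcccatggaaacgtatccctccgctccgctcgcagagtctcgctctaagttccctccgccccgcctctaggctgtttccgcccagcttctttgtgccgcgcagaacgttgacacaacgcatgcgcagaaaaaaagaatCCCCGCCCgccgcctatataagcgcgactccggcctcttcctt
Hnrnph2: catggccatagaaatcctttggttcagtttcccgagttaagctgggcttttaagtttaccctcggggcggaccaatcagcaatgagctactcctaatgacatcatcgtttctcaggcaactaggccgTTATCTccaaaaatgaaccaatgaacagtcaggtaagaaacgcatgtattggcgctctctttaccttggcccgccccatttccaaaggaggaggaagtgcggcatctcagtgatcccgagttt
Hnrnpa0: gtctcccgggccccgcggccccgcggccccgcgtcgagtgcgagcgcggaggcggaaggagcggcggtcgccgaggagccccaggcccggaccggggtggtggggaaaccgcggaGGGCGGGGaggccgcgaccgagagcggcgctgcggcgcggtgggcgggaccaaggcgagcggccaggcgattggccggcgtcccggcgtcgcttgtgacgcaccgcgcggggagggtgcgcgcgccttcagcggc
The GATA letters stood 1 time in the Hnrnph2 sequence and in none of the other 3. The CACC letters stood 1 time in Srsf5, 2 times in Srsf7, 1 time in Hnrnpa0 and nowhere in Hnrnph2. RefSeq gave a promoter for 34 of the 37 genes, in 47 windows, of which 7 held the GATA letters and 31 the CACC letters. Among all 32851 promoter windows 26.5% held the GATA letters and 45.9% the CACC letters. A match is a description of the sequence and not a bound site.

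The libraries held 6931315 to 32699098 reads, so that 1 read was worth 0.36 to 4.72 normalised counts. Library names carry a prefix, JC or MS, whose meaning is not given. Every Gata1s R3 library is MS, and at each day 1 wild type R3 library is MS, so the prefix was a term of the model and 18.3% of genes differed between MS and JC libraries. Of the 36 splicing factors, 15 were higher and 3 lower in MS libraries. Within MS libraries alone, 0 of the 88 called differences of genes named here changed direction. Each wild type group then holds 1 library, so that fit cannot show the spread between wild type libraries. JC libraries hold no Gata1s R3 sample. All 10 erythroblast markers were expressed in every group and higher in R3 than in R1/2 in both genotypes and on both days. In Gata1s R3 cells 3 of 5 tested megakaryocyte markers were higher than in wild type R3 cells on both days, with summed levels of 4023 to 5140.0 in Gata1s and 1041 to 1129 normalised counts in wild type at E14.5, and 3369 to 3686 in Gata1s and 940.3 to 1457 in wild type at E12.5. Replicate 1 of wild type E14.5 R1/2 stood apart with a sum of 20467 normalised counts over 10 neutrophil and monocyte markers, against 809.6 in replicate 2. Summed mast cell markers were at 35.0 to 61.1 and summed lymphoid markers at 32.4 to 174.0 normalised counts in wild type E14.5 R1/2, and at most 36.4 and 51.9 in every other group, with Tpsb2 and Cd3e at 0 in every library. The Gata1 transcript itself had 13744 to 14197 normalised counts in Gata1s E14.5 R3 and 9614 to 10803 in wild type E14.5 R3, and since the table does not separate its exons this does not check the genotype.

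On the deposited scale the main pattern was a split within the families as erythroblasts matured. Most SF3 subunits were lower in R3 than in R1/2, while Srsf and Hnrnp genes were called in both directions. All called genes were split as well on that scale, with 3709 higher and 3761 lower in wild type E14.5. The split of the factors depended on the scale. With libraries scaled to equal totals, 0 factors were higher and 34 lower in wild type E14.5, and under quantile normalisation 2 and 29. Among wild type libraries at E14.5, 10 of the 36 factors were higher and 16 lower in R3 than in R1/2, against 82.9% of all tested genes called in either direction (adjusted p under 0.05, limma). At E12.5 the wild type counts were 9 higher and 19 lower, against 79.0% of all genes. In Gata1s cells they were 9 higher and 18 lower at E14.5, against 84.9% of all genes, and 12 higher and 18 lower at E12.5, against 73.7%. The share of splicing factors called was therefore near that of all genes, and their median absolute log2 difference was below that of all genes in each of the 4 comparisons, at 0.52 against 1.06 in Gata1s E14.5, 0.41 against 1.01 in wild type E14.5, 0.45 against 0.59 in Gata1s E12.5 and 0.35 against 0.76 in wild type E12.5. Without the wild type E14.5 R1/2 library rich in neutrophil markers, 9 were higher and 16 lower in wild type E14.5.

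**Figure D1:**
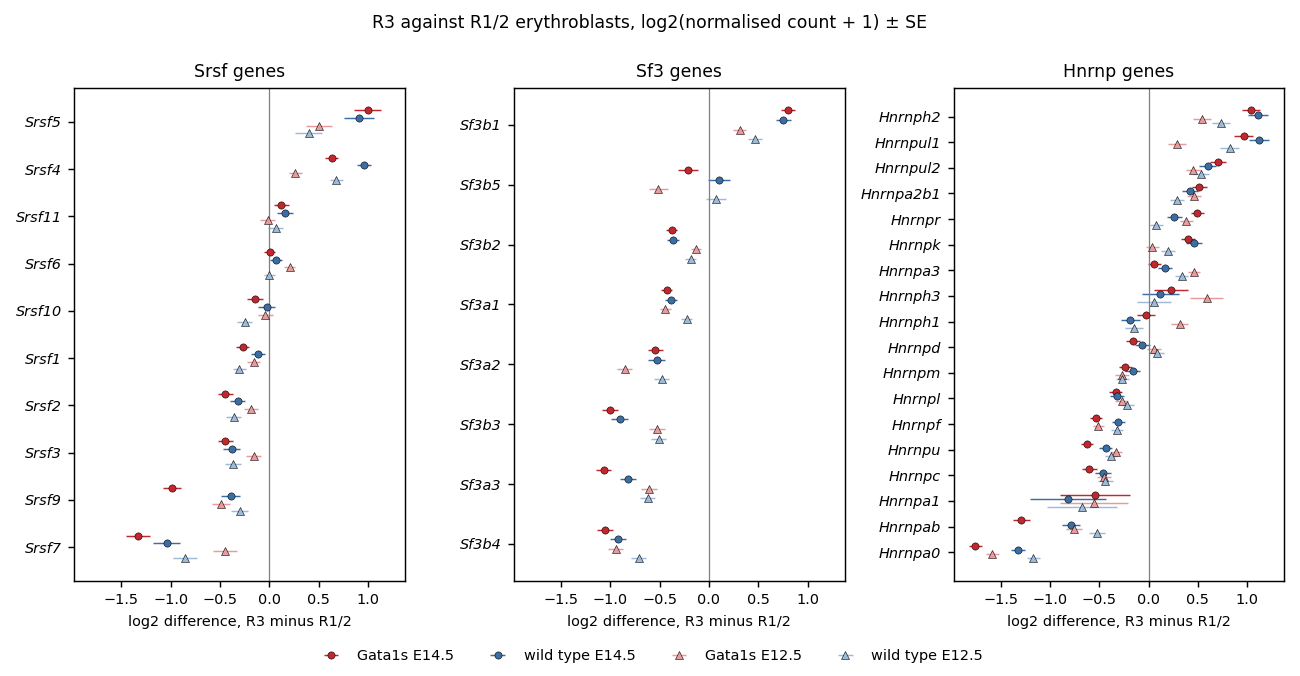
Log2 difference between R3 and R1/2 on the deposited scale (x axis, R3 minus R1/2, log2 of normalised count plus 1) for the 36 tested splicing factors, with a point per genotype and day and bars of 1 SE. Of the 36, 7 lie to the right and 15 to the left with a call in all 4 comparisons, a count not made over all genes. The points on the right move to the left of 0 for most genes when libraries are scaled to equal totals.

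Of the 36 factors, 7 were higher in R3 in all 4 comparisons on the deposited scale, namely Srsf4, Srsf5, Sf3b1, Hnrnpa2b1, Hnrnph2, Hnrnpul1 and Hnrnpul2. Another 15 were lower in all 4, namely Srsf2, Srsf7, Srsf9, Sf3a1, Sf3a2, Sf3a3, Sf3b2, Sf3b3, Sf3b4, Hnrnpa0, Hnrnpab, Hnrnpc, Hnrnpf, Hnrnpl and Hnrnpu. None was called in both directions, and Srsf11, Hnrnpa1 and Hnrnpd were called in none of the 4. How many of all genes were called alike in all 4 was not counted, so these counts are a description. In single comparisons 73.7% to 84.9% of all genes were called. The families differed in their make-up. In wild type E14.5, 1 of 8 Sf3 genes was higher and 6 lower with a median log2 difference of -0.46, 2 of 10 Srsf genes were higher and 4 lower with a median of -0.07, and 7 of 18 Hnrnp genes were higher and 6 lower with a median of -0.11, where the median over all genes was -0.02. The Sf3 median was also the lowest of the 3 families in the other comparisons, at -0.49 in Gata1s E14.5, -0.52 in Gata1s E12.5 and -0.35 in wild type E12.5. Some markers of other cells were also higher in wild type R3 than in R1/2 on both days. These were 5 of 5 tested for megakaryocytes, 3 of 3 for hepatoblasts and 1 of 1 for macrophages. Summed endothelial markers were lower, at 207.8 to 324.7 normalised counts in wild type R3 and 677.9 to 752.4 in wild type R1/2. Summed neutrophil and monocyte markers overlapped between the wild type gates on both days. What part these cells had in the differences was not tested. In bulk samples a smaller share of cells and less RNA per cell cannot be told apart.

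**Figure D2:**
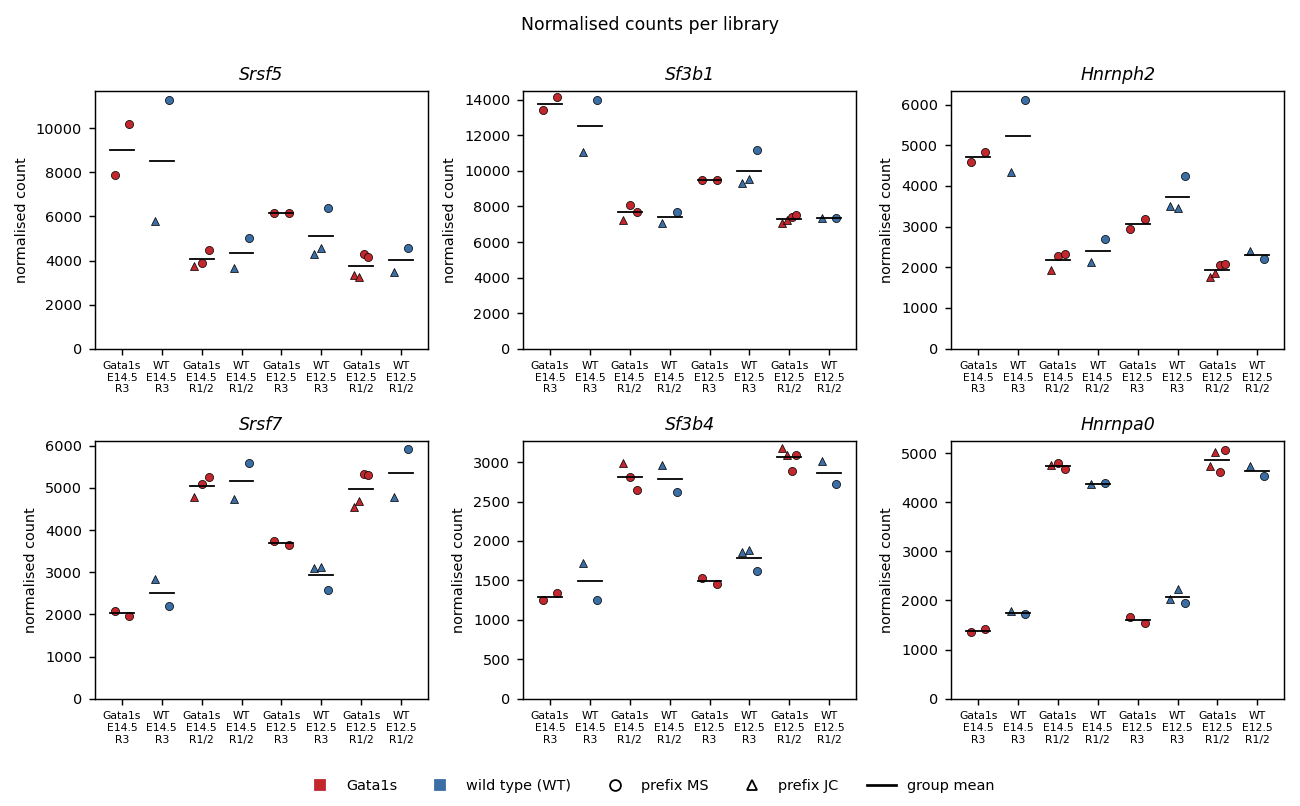
Normalised counts of 6 splicing factors in each of the 20 libraries, grouped by genotype, day and gate. R3 groups stand left of R1/2 groups, with a point per library. Srsf5, Sf3b1 and Hnrnph2 lie higher in R3 and Srsf7, Sf3b4 and Hnrnpa0 lower on the deposited scale, and under scaling to equal totals the 3 higher genes are no longer higher in most comparisons.

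Within the SR family Srsf5 and Srsf4 were higher and Srsf7 was lower in R3. Srsf5, an SR protein whose own transcript is under splicing control, had 7862 and 10199 normalised counts in Gata1s E14.5 R3, 5773 and 11309 in wild type E14.5 R3, 6171 and 6171 in Gata1s E12.5 R3 and 4313, 4568 and 6395 in wild type E12.5 R3. In R1/2 it had 3766, 3894 and 4500.4 in Gata1s E14.5, 3677 and 5039 in wild type E14.5, 3321, 3233, 4299 and 4162 in Gata1s E12.5 and 3500.4 and 4579.6 in wild type E12.5. The highest 3 libraries were from E14.5 R3, and the 2 wild type E12.5 R3 libraries of the JC prefix were within the range of R1/2. The log2 difference between R3 and R1/2 was 1.00 ± 0.14 (SE) in Gata1s E14.5, 0.91 ± 0.15 in wild type E14.5, 0.50 ± 0.13 in Gata1s E12.5 and 0.40 ± 0.14 in wild type E12.5, with adjusted p = 4.27e-06, 2.96e-05, 0.00303 and 0.0134 (limma). The last of these was 0.0771 without replicate 2 of wild type E12.5 R1/2. Srsf5 was also among the genes higher in MS libraries, by 0.45 on the log2 scale, and 3 of the 4 differences between gates, all but that of Gata1s E12.5, were below 0 under equal totals.

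Srsf7, an SR protein that also serves as an adaptor for mRNA export, had 2079.8 and 1964 normalised counts in Gata1s E14.5 R3, 2837 and 2196 in wild type E14.5 R3, 3743 and 3636 in Gata1s E12.5 R3 and 3097, 3126 and 2580.3 in wild type E12.5 R3. Its R1/2 counts were 4784, 5093 and 5267 in Gata1s E14.5, 4741 and 5579 in wild type E14.5, 4558, 4681, 5317 and 5311 in Gata1s E12.5 and 4785 and 5919.8 in wild type E12.5. Every R3 library was below every R1/2 library. The log2 difference was -1.34 ± 0.12 (SE) in Gata1s E14.5, -1.04 ± 0.13 in wild type E14.5, -0.45 ± 0.12 in Gata1s E12.5 and -0.86 ± 0.12 in wild type E12.5, with an adjusted p of at most 0.0032 (limma). Srsf4, a longer SR protein, had 2156 to 3452 normalised counts in R3 and 1683 to 1881 in R1/2. Its log2 difference was 0.63 ± 0.066 in Gata1s E14.5, 0.96 ± 0.072 in wild type E14.5, 0.26 ± 0.065 in Gata1s E12.5 and 0.68 ± 0.066 in wild type E12.5, so that the smallest difference was in Gata1s E12.5, and under equal totals all 4 differences were below 0. Srsf2 and Srsf9 were the other SR genes lower in all 4 comparisons.

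In the SF3 complexes Sf3b1 stood alone in being higher in R3. Sf3b1, the large subunit of SF3b that encloses the branch site, had 13416 and 14165 normalised counts in Gata1s E14.5 R3, 11093 and 13991 in wild type E14.5 R3, 9491 and 9517 in Gata1s E12.5 R3 and 9316, 9536 and 11200.2 in wild type E12.5 R3. In R1/2 it had 7249, 8073 and 7669 in Gata1s E14.5, 7079 and 7701 in wild type E14.5, 7051, 7226, 7392 and 7519 in Gata1s E12.5 and 7325 and 7369.9 in wild type E12.5. Every R3 library was above every R1/2 library, and the highest 3 were again from E14.5. The log2 difference was 0.80 ± 0.071 (SE) in Gata1s E14.5, 0.75 ± 0.076 in wild type E14.5, 0.31 ± 0.069 in Gata1s E12.5 and 0.47 ± 0.070 in wild type E12.5, with an adjusted p of at most 0.00075 (limma), and all 4 were below 0 both under quantile normalisation and under equal totals.

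Sf3b4, an SF3b subunit that binds RNA near the branch site, had 1254 and 1336 normalised counts in Gata1s E14.5 R3, 1724 and 1251 in wild type E14.5 R3, 1528 and 1454 in Gata1s E12.5 R3 and 1859, 1889.6 and 1615 in wild type E12.5 R3. Its R1/2 counts were 2988, 2807 and 2642 in Gata1s E14.5, 2959 and 2616 in wild type E14.5, 3174, 3093, 2885 and 3089 in Gata1s E12.5 and 3008 and 2727 in wild type E12.5. All R3 libraries were below all R1/2 libraries. The log2 difference was -1.06 ± 0.079 (SE) in Gata1s E14.5, -0.92 ± 0.085 in wild type E14.5, -0.95 ± 0.076 in Gata1s E12.5 and -0.71 ± 0.078 in wild type E12.5, with an adjusted p of at most 4.1e-07 (limma). Sf3b3, the SF3b subunit built of beta propellers, had 3952 to 6371 normalised counts in R3 and 8117 to 8714 in R1/2, with log2 differences of -1.01 ± 0.081 in Gata1s E14.5, -0.91 ± 0.087 in wild type E14.5, -0.53 ± 0.079 in Gata1s E12.5 and -0.51 ± 0.080 in wild type E12.5. Sf3a3, an SF3a subunit, had 1045 to 1575 in R3 and 2118 to 2382 in R1/2, with log2 differences of -1.07 ± 0.079, -0.82 ± 0.085, -0.61 ± 0.077 and -0.62 ± 0.078 in the same order. With Sf3a1, Sf3a2 and Sf3b2, 6 of the 8 subunits were lower in all 4 comparisons, and under each of the 3 other scalings at least 7 of the 8 were called lower in every comparison.

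Among hnRNP genes Hnrnph2 and Hnrnpul1 were higher and Hnrnpa0 and Hnrnpab lower in R3. Hnrnph2, an X-linked hnRNP that binds G-rich RNA, had 4591 and 4841 normalised counts in Gata1s E14.5 R3, 4354 and 6124 in wild type E14.5 R3, 2937 and 3189 in Gata1s E12.5 R3 and 3505, 3453 and 4243 in wild type E12.5 R3. In R1/2 it had 1923, 2271 and 2329.6 in Gata1s E14.5, 2119.7 and 2685 in wild type E14.5, 1766, 1852, 2062 and 2090.5 in Gata1s E12.5 and 2397 and 2200.0 in wild type E12.5. Every R3 library was above every R1/2 library. The log2 difference was 1.04 ± 0.094 (SE) in Gata1s E14.5, 1.11 ± 0.10 in wild type E14.5, 0.54 ± 0.091 in Gata1s E12.5 and 0.73 ± 0.093 in wild type E12.5, with an adjusted p of at most 6.32e-05 (limma), and 3 of the 4 were below 0 under equal totals. Hnrnpul1, a nuclear protein linked to RNA processing and the DNA damage response, had 4535 to 9496 in R3 and 3409 to 4071 in R1/2. Its log2 difference was 0.97 ± 0.094 in Gata1s E14.5, 1.12 ± 0.10 in wild type E14.5, 0.28 ± 0.092 in Gata1s E12.5 and 0.82 ± 0.093 in wild type E12.5, and that of Gata1s E12.5, adjusted p = 0.0108 (limma), had an adjusted p of 0.104 by limma without replicate 1 of Gata1s E12.5 R3. Equal totals put 3 of these 4 differences below 0, all but that of wild type E12.5.

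Hnrnpa0, an hnRNP that binds AU-rich elements of messenger RNAs, had 1349.7 and 1422 normalised counts in Gata1s E14.5 R3, 1780.0 and 1723 in wild type E14.5 R3, 1654 and 1543 in Gata1s E12.5 R3 and 2023, 2236 and 1948 in wild type E12.5 R3. Its R1/2 counts were 4759.9, 4789.8 and 4667 in Gata1s E14.5, 4378 and 4381 in wild type E14.5, 4742, 5024, 4623 and 5064 in Gata1s E12.5 and 4729 and 4530.1 in wild type E12.5. The highest R3 library was below the lowest R1/2 library by a wide margin. The log2 difference was -1.76 ± 0.065 (SE) in Gata1s E14.5, -1.32 ± 0.071 in wild type E14.5, -1.58 ± 0.064 in Gata1s E12.5 and -1.17 ± 0.065 in wild type E12.5, with an adjusted p of at most 1.46e-10 (limma). Hnrnpab, which binds single-stranded nucleic acids, had 5770.4 to 9684 normalised counts in R3 and 12614 to 15575 in R1/2, with log2 differences of -1.29 ± 0.084 in Gata1s E14.5, -0.79 ± 0.090 in wild type E14.5, -0.75 ± 0.082 in Gata1s E12.5 and -0.52 ± 0.083 in wild type E12.5. Hnrnpa2b1 and Hnrnpul2 were the other hnRNP genes higher in all 4 comparisons, and Hnrnpc, Hnrnpf, Hnrnpl and Hnrnpu the others lower in all 4.

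The direction of the genes that were higher depended on how R3 and R1/2 libraries were put on one scale. The deposited normalisation held the median gene near 0, whereas scaling libraries to equal totals moved the median of all genes in R3 against R1/2 by -1.21 in Gata1s E14.5, -1.26 in wild type E14.5, -0.33 in Gata1s E12.5 and -0.77 in wild type E12.5. On that scale 0 splicing factors were higher and 35 lower in Gata1s E14.5 (90.1% of all genes called), 0 and 34 in wild type E14.5 (90.1%), 1 and 24 in Gata1s E12.5 (74.3%), and 0 and 33 in wild type E12.5 (86.3%). Of all called genes, the share higher in R3 was 49.1% and 49.7% at E14.5 in Gata1s and wild type, and 50.4% and 49.7% at E12.5, on the deposited scale. Equal totals gave shares of 18.8% and 17.3% at E14.5 and 31.8% and 21.0% at E12.5, and upper-quartile scaling 33.8% and 33.8% at E14.5 and 41.2% and 35.0% at E12.5. Quantile normalisation left these shares at 46.4% and 46.7% at E14.5 and 48.3% and 45.2% at E12.5, but 1 splicing factor was then higher and 30 lower in Gata1s E14.5, 2 and 29 in wild type E14.5, 3 and 25 in Gata1s E12.5, and 4 and 30 in wild type E12.5. On that scale 27 to 32 of the 36 factors lay below the median of all genes. Of the named differences of all comparisons, 30 turned sign under equal totals and 17 under quantile normalisation, and 5 of these 17 stayed on the same side of the median of all genes.

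Ratios between genes of 1 library do not change when a library is scaled by a single factor, although quantile normalisation can change them, and they are given as a description because the pairs were picked from the values above. The ratio of Srsf5 to Srsf7 was 3.78 to 5.19 in Gata1s E14.5 R3, 2.03 to 5.15 in wild type E14.5 R3, 1.65 to 1.70 in Gata1s E12.5 R3 and 1.39 to 2.48 in wild type E12.5 R3, while it was 0.691 to 0.903 over all R1/2 libraries. The ratio of Sf3b1 to Sf3b4 was 10.6 to 10.7, 6.44 to 11.2, 6.21 to 6.55 and 5.01 to 6.93 in the same R3 groups and 2.22 to 2.94 in R1/2. The ratio of Hnrnph2 to Hnrnpa0 was 3.40, 2.45 to 3.55, 1.78 to 2.07 and 1.54 to 2.18 in R3 and 0.369 to 0.613 in R1/2, with both Gata1s E14.5 R3 libraries at 3.40. For all 3 pairs every R3 library lay above every R1/2 library. Within wild type R3, MS libraries had higher ratios than JC libraries, and the part of the prefix in these ratios was not tested.

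**Figure D3:**
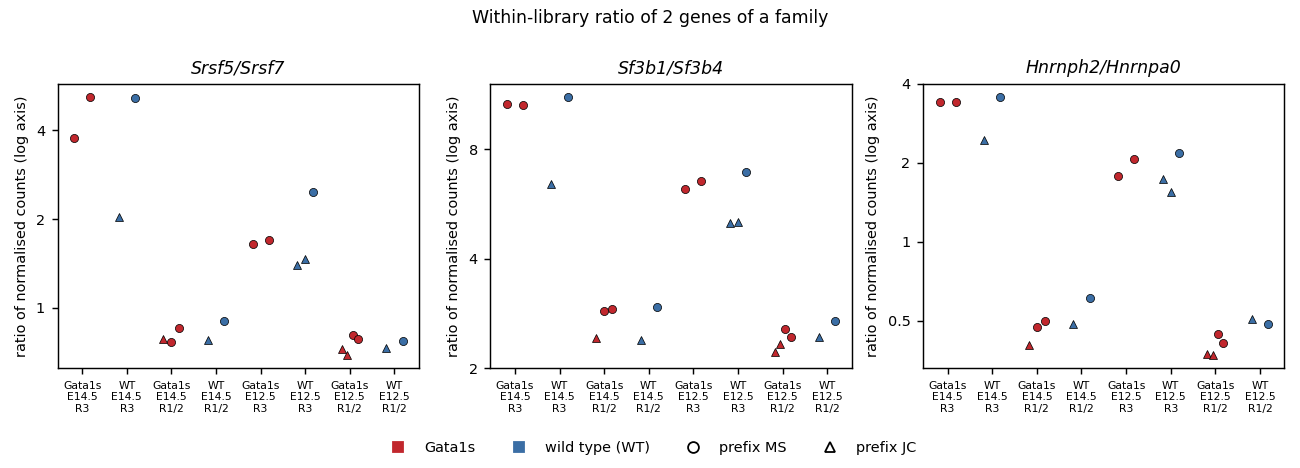
Ratio of 3 pairs of splicing factors within each library (log axis), by genotype, day and gate, with R3 groups left of R1/2 groups and a point per library. For each pair all R3 libraries lie above all R1/2 libraries, from 1.39 upwards for Srsf5 to Srsf7 against at most 0.903 in R1/2.

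As a share of all reads assigned to genes, each family was smaller in R3 than in R1/2. Hnrnp genes made up 0.522% to 0.537% of the library in Gata1s E14.5 R3, 0.496% to 0.529% in wild type E14.5 R3, 0.929% to 0.961% in Gata1s E12.5 R3 and 0.681% to 0.734% in wild type E12.5 R3, against 1.17% to 1.30% in R1/2. Srsf genes made up 0.187% to 0.191%, 0.175% to 0.200%, 0.366% to 0.375% and 0.254% to 0.27% in the same R3 groups, against 0.448% to 0.544% in R1/2. Sf3 genes made up 0.106% to 0.108%, 0.0927% to 0.112%, 0.186% to 0.196% and 0.146% to 0.168%, against 0.256% to 0.301% in R1/2. At E12.5 the Gata1s R3 libraries were above the wild type R3 libraries in all 3 families, and at E14.5 the ranges overlapped in all 3 families. Globin reads moved the other way, at 9.22% to 10.9% of reads in Gata1s E14.5 R3, 12.9% to 13.1% in wild type E14.5 R3, 3.12% to 3.26% in Gata1s E12.5 R3 and 8.50% to 9.69% in wild type E12.5 R3, and at most 1.40% in R1/2, so the shares were also taken without globin reads. Hnrnp genes then made up 0.575% to 0.603% in Gata1s E14.5 R3, 0.569% to 0.609% in wild type E14.5 R3, 0.960% to 0.992% in Gata1s E12.5 R3 and 0.754% to 0.808% in wild type E12.5 R3, against 1.18% to 1.31% in R1/2. In all 3 families every R3 library stayed below every R1/2 library without globin reads.

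**Figure D4:**
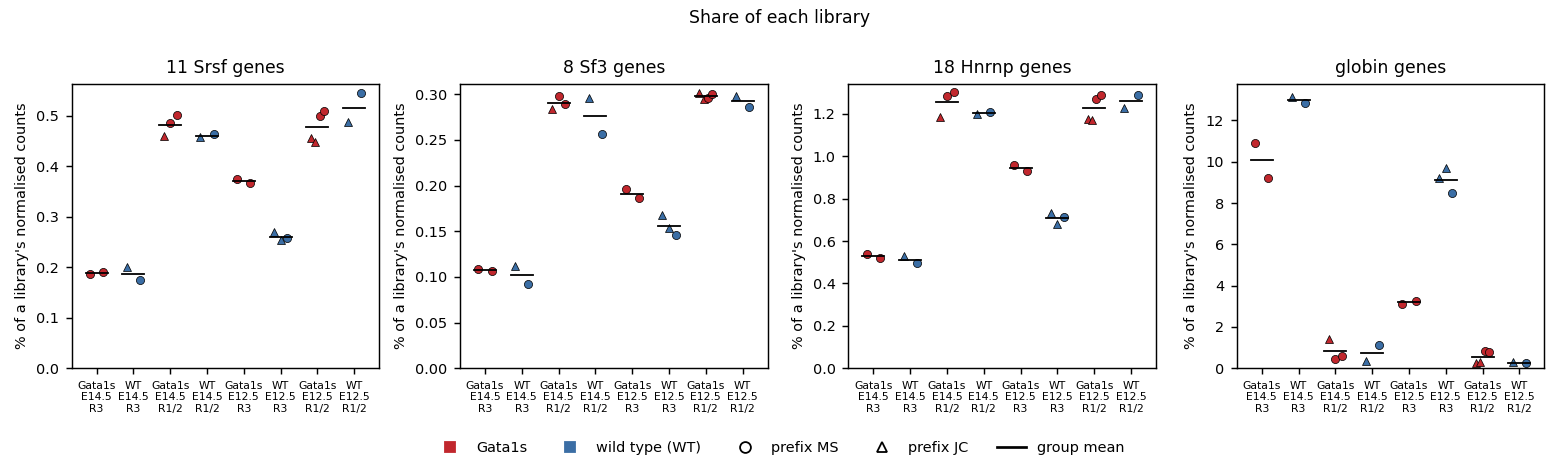
Share of each library's reads (percent) assigned to Srsf, Sf3 and Hnrnp genes, by genotype, day and gate, with R3 groups left of R1/2 groups and a point per library. R3 libraries lie below R1/2 libraries in all 3 families, and the lowest are those of E14.5 R3.

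Between the days the factors differed in R3, at a share near that of all genes, and not detectably in R1/2. In R1/2, 0 of 36 factors were called between E14.5 and E12.5 by limma, edgeR or DESeq2, against 4.68% of all genes by limma, and 2 had an unadjusted p under 0.05. In R3, 9 were higher and 16 lower at E14.5 than at E12.5, against 70.3% of all genes, averaged over both genotypes. By family there were 2 higher and 5 lower among Srsf, 1 and 5 among Sf3, and 6 and 6 among Hnrnp genes. Sf3b1 had a log2 difference of 0.42 ± 0.052 (SE), Hnrnph2 of 0.53 ± 0.068, Hnrnpul1 of 0.54 ± 0.069, Srsf5 of 0.58 ± 0.10 and Hnrnpk, which binds C-rich RNA, of 0.36 ± 0.053. Among the lower genes were Sf3b3 at -0.43 ± 0.059, Srsf7 at -0.55 ± 0.090 and Hnrnpab at -0.36 ± 0.061, each with an adjusted p of at most 9.94e-05 (limma). Under equal totals, which moved the median of all genes by -0.73, 0 were higher and 35 lower against 86.9% of all genes, and the 5 higher genes named here were below 0. Of all called genes 49.1% were higher at E14.5 on the deposited scale, against 10.2% under equal totals and 28.9% under upper-quartile scaling. Upper-quartile scaling gave 4 factors higher and 27 lower. Quantile normalisation gave 0 higher and 29 lower, although 43.1% of all called genes were higher. There 31 of the 36 lay below the median of all genes, and the 5 higher genes named here were below 0. These comparisons share their R3 libraries with those between the gates.

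In R1/2 the genotypes differed little in these genes. At E14.5, 0 of 36 factors were called between Gata1s and wild type by limma, edgeR or DESeq2, against 10.6% of all genes by limma, and 2 had an unadjusted p under 0.05. At E12.5, 1 was called, against 10.3% of all genes. This was Srsf10, an SR protein that represses splicing when dephosphorylated, at 3256, 3307, 3788 and 3907 normalised counts in Gata1s E12.5 R1/2 and 4014 and 4487 in wild type E12.5 R1/2. The groups did not overlap, and the log2 difference was -0.26 ± 0.074 (SE, adjusted p = 0.0368, limma), a call that was lost without any 1 of its 6 libraries, with adjusted p up to 0.198.

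At E12.5 R3, 3 factors were higher and 9 lower in Gata1s than in wild type, against 40.2% of all genes. The share of factors called, 33.3%, was below that of all genes. By edgeR 11 were called, 9 of them shared with limma, against 39.9% of all genes. Srsf4 had 2156 and 2274 normalised counts in Gata1s E12.5 R3 and 2711, 2679 and 3215 in wild type E12.5 R3, a log2 difference of -0.42 ± 0.070 (SE, adjusted p = 0.000214, limma). Hnrnpul1 had 4905 and 4535 in Gata1s and 5849, 5957 and 7007 in wild type, a log2 difference of -0.50 ± 0.099 (adjusted p = 0.000931). Both genes are among those that were higher in R3 than in R1/2. Hnrnpa0, one of those that were lower in R3, had a log2 difference of -0.34 ± 0.069 (adjusted p = 0.000962), and Hnrnph2 one of -0.44 ± 0.098 (adjusted p = 0.00219, limma). The libraries of Srsf4 and Hnrnpul1 did not overlap between the genotypes.

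The SF3a subunit Sf3a2, which contacts U2 RNA and the branch site region, had 1029 and 955 normalised counts in Gata1s E12.5 R3 and 1390.0, 1419.8 and 1348 in wild type E12.5 R3, a log2 difference of -0.37 ± 0.082 (SE, adjusted p = 0.00229, limma). The small SF3b subunit Sf3b5 had 675 and 579 in Gata1s and 995, 1042 and 961 in wild type, a log2 difference of -0.47 ± 0.11 (adjusted p = 0.00251). Hnrnpr, an RNA-binding relative of Syncrip, was the higher gene with the smallest p, at 3378 and 3584 in Gata1s and 2453, 2310.2 and 3024 in wild type, a log2 difference of 0.30 ± 0.071 (adjusted p = 0.00336). Its groups did not overlap. Hnrnph3, at a log2 difference of 0.57 ± 0.18, lost its call without replicate 1 of Gata1s or replicate 3 of wild type, with adjusted p up to 0.153, and Srsf6, at 0.19 ± 0.062, lost its call without replicate 1 or 2 of Gata1s or replicate 1 or 3 of wild type, with adjusted p up to 0.128. Hnrnpf, Sf3a1 and Hnrnpk were called by limma with log2 differences of -0.20, -0.16 and -0.20 and not by edgeR, whose adjusted p-values were 0.147, 0.204 and 0.191, and all 3 turned above 0 under equal totals. They lost their limma calls without single libraries, for 2, 14 and 11 of the 20 libraries.

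The scale bore on these calls as well. Equal totals moved the median of all genes between Gata1s and wild type at E12.5 R3 by 0.44, and then 28 factors were higher and 0 lower in Gata1s, against 63.3% of all genes. Srsf4, Hnrnpa0 and Sf3a2 were then just above 0 at 0.021, 0.096 and 0.074 on the log2 scale, below the median of all genes on that scale, as before. Of all called genes 38.1% were higher in Gata1s on the deposited scale, 86.1% under equal totals, 63.7% under upper-quartile scaling and 55.3% under quantile normalisation. All 10 erythroblast markers were lower in Gata1s than in wild type E12.5 R3, with summed levels of 371759 to 375192 normalised counts in Gata1s and 659102 to 958099 in wild type, and their part in these differences was not tested. Hepatoblast markers, 3 of 3 tested, were higher in Gata1s in the model with the prefix term. Their sums per library overlapped, at 1114 to 2015 in Gata1s and 835.9 to 2049 in wild type, the highest library being wild type.

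At E14.5 R3, 1 factor was higher and 5 lower in Gata1s than in wild type by both edgeR and limma, against 34.5% of all genes called by edgeR. By limma 2 more, Sf3a3 and Hnrnpc, were lower, against 40.9% of all genes, and on simulated data limma made more false calls than edgeR in this comparison. Hnrnpa0 had 1349.7 and 1422 normalised counts in Gata1s E14.5 R3 and 1780.0 and 1723 in wild type E14.5 R3, a log2 difference of -0.32 ± 0.073 (SE, adjusted p = 0.0026, limma). Srsf9, a short SR protein, had 605 and 493 in Gata1s and 764 and 694 in wild type, a log2 difference of -0.43 ± 0.10 (adjusted p = 0.0029). Srsf4 had 2843 and 2761 in Gata1s and 3208 and 3452 in wild type, a log2 difference of -0.29 ± 0.074 (adjusted p = 0.00591). For these 3 genes both Gata1s libraries were below both wild type libraries. Srsf4 and Hnrnpa0 were therefore called lower in Gata1s R3 on both days on the deposited scale, and at E12.5 they were just above 0 under equal totals.

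Hnrnpab at E14.5 R3 had 6770.5 and 5770.4 normalised counts in Gata1s and 8352 and 7682 in wild type, a log2 difference of -0.39 ± 0.093 (SE, adjusted p = 0.00338, limma, and 0.0546 without replicate 2 of Gata1s). Hnrnpa3, a close relative of Hnrnpa2b1, had a log2 difference of -0.26 ± 0.072 (adjusted p = 0.0102, and 0.0593 without replicate 2 of wild type). Sf3a3, at -0.28 ± 0.088, lost its call without replicate 2 of Gata1s or either wild type library, with adjusted p up to 0.0729, and had an edgeR adjusted p of 0.0512. Hnrnpc, which binds U-rich RNA, was at -0.23 ± 0.085 with an edgeR adjusted p of 0.12, and lost its limma call without any 1 of 9 libraries, with adjusted p up to 0.223. The higher gene was Hnrnpr, at 0.21 ± 0.075 (adjusted p = 0.0367, and up to 0.183 without replicate 1 of Gata1s, replicate 2 of wild type, or replicate 1 or 4 of Gata1s E12.5 R1/2). Srsf7 at -0.33 ± 0.14 (adjusted p = 0.0677) and Hnrnph2 at -0.25 ± 0.10 (adjusted p = 0.0656) did not pass.

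The E14.5 R3 calls rested on 2 libraries in each group. Only 1 of the 36 was called when libraries were weighted by their spread, and 1 when only the compared groups entered the fit. Equal totals moved the median of all genes by 0.10 and gave 2 higher and 0 lower, against 34.6% of all genes, and of all called genes 44.1% were higher on the deposited scale and 59.8% under equal totals. Of the 10 erythroblast markers 3 were lower in Gata1s than in wild type at E14.5 R3, the summed levels overlapping at 1329990.0 to 1345530.0 normalised counts in Gata1s and 1253060.0 to 1820570.0 in wild type. Hepatoblast markers, 3 of 3 tested, were lower, with sums of 91.6 to 188.1 against 358.9 to 3942. The part of these cells in the differences was not tested.

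**Figure D5:**
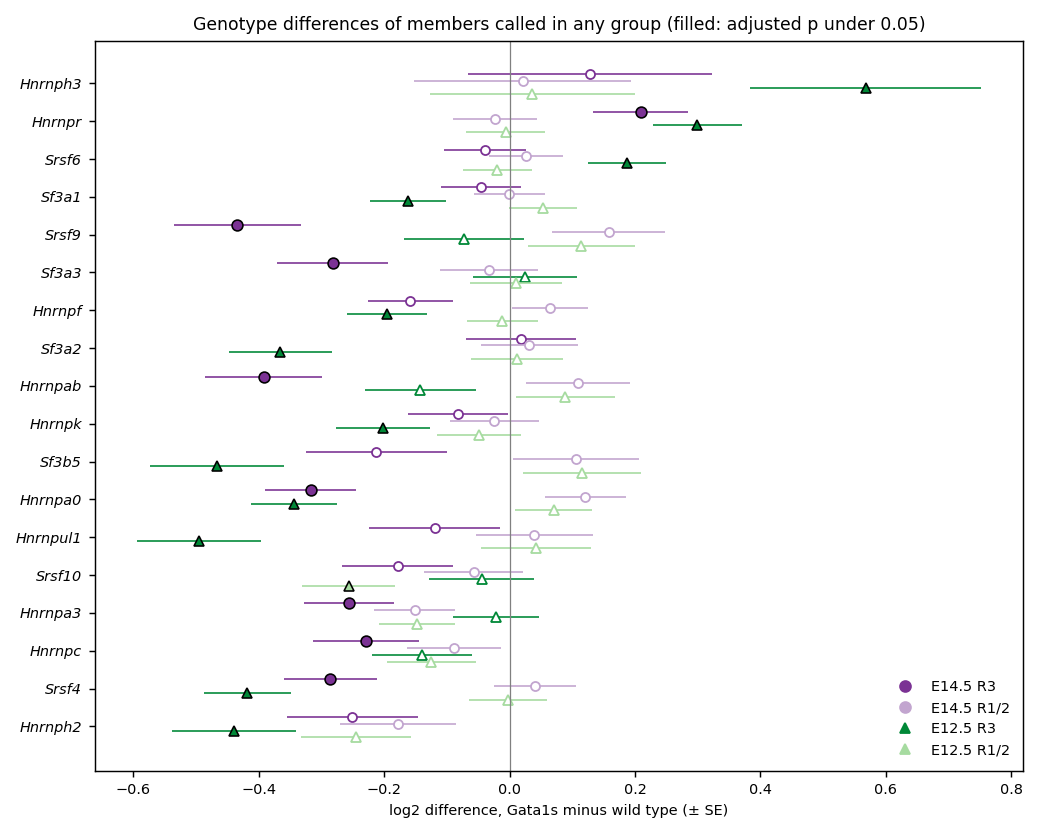
Log2 difference between Gata1s and wild type (x axis, Gata1s minus wild type, log2 of normalised count plus 1) for the 18 splicing factors called in at least 1 of E14.5 R3, E14.5 R1/2, E12.5 R3 and E12.5 R1/2, with filled points for calls and bars of 1 SE. Most points lie within 0.5 of 0, with Srsf4 and Hnrnpa0 to the left in R3 on both days on the deposited scale and right of 0 at E12.5 under equal totals.

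Averaged over the 4 pairs of groups, 1 factor was higher and 9 lower in Gata1s, against 48.6% of all genes by limma and 46.1% by edgeR, which called 10. Hnrnph2 had a mean log2 difference of -0.28 ± 0.050 (SE, adjusted p = 0.000241, limma) and was lower under every alternative tried. In R1/2 it had 1923, 2271 and 2329.6 normalised counts in Gata1s E14.5 and 2119.7 and 2685 in wild type E14.5, and 1766, 1852, 2062 and 2090.5 in Gata1s E12.5 and 2397 and 2200.0 in wild type E12.5. Srsf4 had -0.17 ± 0.035 (adjusted p = 0.00104), Hnrnpa3 -0.14 ± 0.035 (adjusted p = 0.00265) and Hnrnpr, the higher gene, 0.12 ± 0.036 (adjusted p = 0.012, and 0.0549 without replicate 2 of wild type E12.5 R1/2). Srsf4 and Hnrnpr were called between the genotypes in R3 on both days and in R1/2 on neither. Their genotype difference in R3 less that in R1/2 was -0.37 and 0.27, so their means came mainly from R3. Under equal totals, which moved the median by 0.15, 13 were higher and 1 lower, against 50.0% of all genes, and Hnrnpa3 was at 0.0049. Of all called genes 41.7% were higher in Gata1s on the deposited scale, 73.9% under equal totals and 54.0% under upper-quartile scaling. Quantile normalisation gave 7 factors higher and 2 lower, where 50.7% of all called genes were higher.

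Whether the genotype difference itself differed between R3 and R1/2 was tested as an interaction averaged over the days. Of the 36 factors 2 had a higher and 7 a lower Gata1s difference in R3 than in R1/2, against 24.6% of all genes. Hnrnpa0 had an interaction of -0.43 ± 0.068 (SE, adjusted p = 0.000356, limma), Srsf4 of -0.37 ± 0.069, Sf3b5 of -0.45 ± 0.10, Hnrnpab of -0.37 ± 0.087, Srsf9 of -0.39 ± 0.094 and Hnrnpul1 of -0.35 ± 0.097 on the log2 scale. For these 6 genes the level in Gata1s relative to wild type was lower in R3 than in R1/2, and Hnrnpul1 had an adjusted p of 0.0723 by limma without replicate 2 of wild type E14.5 R3. Hnrnpr had an interaction of 0.27 ± 0.070 and Hnrnph1, a G-rich RNA binder, one of 0.31 ± 0.092, which had an adjusted p of up to 0.0849 without replicate 1 of wild type E14.5 R1/2, replicate 2 of Gata1s E14.5 R3 or replicate 2 of wild type E14.5 R3. Hnrnpf, at -0.20 ± 0.063, lost its call without any 1 of 5 libraries and was above 0 under equal totals. Under equal totals, with the median of all genes moved by 0.25, 14 were higher and 0 lower, against 29.7% of all genes. Of all called genes 83.0% were then higher, against 38.9% on the deposited scale. Quantile normalisation gave 4 factors higher and 4 lower, where 53.2% of all called genes were higher. On that scale 27 of the 36 lay above the median of all genes.

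Between the days the genotype difference in R3 differed for 2 factors, 1 in each direction, against 26.8% of all genes. Srsf7 had an interaction of -0.63 ± 0.18 (SE, adjusted p = 0.0178 by limma and adjusted p = 0.0138 by edgeR), being at -0.33 ± 0.14 between Gata1s and wild type at E14.5 and 0.30 ± 0.13 at E12.5. Sf3a2 had an interaction of 0.38 ± 0.11 (adjusted p = 0.0218 by limma and adjusted p = 0.0592 by edgeR). The Srsf7 call was lost without replicate 1 of Gata1s E12.5, replicate 2 of Gata1s E14.5 or replicate 1 of wild type E14.5, with adjusted p up to 0.135. The Sf3a2 call was lost without replicate 2 of Gata1s E12.5, replicate 3 of wild type E12.5, replicate 1 of Gata1s E14.5 or replicate 2 of wild type E14.5, with adjusted p up to 0.0872. Under equal totals, with the median of all genes moved by -0.33, 0 were higher and 20 lower, against 38.0% of all genes. Of all called genes 60.2% were higher on the deposited scale, 20.4% under equal totals, 35.4% under upper-quartile scaling and 43.6% under quantile normalisation.

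Other parts of the splicing machinery show where the 3 families stand in wild type E14.5, R3 against R1/2. The lowest median of the 12 lists was that of snRNP assembly factors, with 1 higher and 11 lower of 14, against 82.9% of all genes called, and a median log2 difference of -1.59, including Prmt5, which methylates Sm proteins, at -2.0 and Gemin5, which binds snRNAs for the SMN complex, at -1.87. Sm core proteins had 0 higher and 4 lower of 6, and LSm proteins 1 and 4 of 6. U2 snRNP and 3 prime splice site factors had 2 higher and 10 lower of 14, with Rbm17 at -1.29 and Zrsr1 at 3.59. In these 4 groups more members were called lower than higher under each of the 3 other scalings as well. The same held for all called genes, of which 17.3% were higher under equal totals, 33.8% under upper-quartile scaling and 46.7% under quantile normalisation.

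Kinases that phosphorylate SR proteins moved apart on the deposited scale, with Clk3 at 3.61 and Srpk1 at -2.10, and the list of SR kinases and SR-related proteins had 9 higher and 6 lower of 18. The Prp19 complex and catalytic step factors had 11 higher and 7 lower of 22, with Prpf18 at 2.41. Nonsense-mediated decay factors, which degrade the unproductive isoforms that SR genes make, had 6 higher and 1 lower of 9, with Smg5 at 1.66. On the deposited scale 82.9% of all genes were called. Under equal totals these 3 lists turned to 2 higher and 15 lower, 2 and 18, and 1 and 8. All genes turned likewise, with 90.1% called, 1406 higher and 6720 lower. Gata1s was also compared with wild type averaged over the 4 pairs. The Prp19 and catalytic step list then had 1 higher and 12 lower of 22 by limma on the deposited scale, against 48.6% of all genes. By edgeR 7 of 22 were called, against 46.1% of all genes. Under equal totals 2 were higher and 1 lower, against 50.0% of all genes.

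Some related genes stand in the table under older symbols and were not chosen by the rule. 0610009D07Rik, the SF3b subunit now named Sf3b6, had log2 differences between R3 and R1/2 of -0.73 in Gata1s E14.5, -0.20 in wild type E14.5, -0.33 in Gata1s E12.5 and -0.15 in wild type E12.5. Hnrpdl had -0.86, -0.91, -0.23 and -0.73 in the same order. Counts of Hnrnpa1, at 28.9 to 123 normalised counts, are uncertain because near-identical copies of the gene can share its reads, and Hnrnph3, at 65.7 to 115, was also low. Hnrnph3, Hnrnpk, Hnrnpu, Sf3a3, Sf3b3, Srsf2 and Srsf9 overlap other genes of the table in the RefSeq annotation, and whether the counting used strand is not given.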

How the data were processed

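Poly-A RNA was sequenced from 20 libraries of the 60 samples, with 40 samples of chromatin not used here. What the authors deposited is a signal for each gene, its count divided by a factor for the library. Per the submitters' processing notes the tools were Trim Galore, TopHat2, Bowtie2, HTSeq and DESeq2, with the builds mm10 and mm9, and the sources used here do not tie a tool or build to a step. All values (100%) were whole multiples of the smallest value above 0 of their library within 0.001, so whole reads were recovered, 6931315 to 32699098 per library. Of 23420 entries, 27 whose symbols had become dates were left out (0.199% to 0.359% of values), and 1 column that matched no sample was not used. The spread between replicate libraries, on average over the tested genes larger than counting error alone, and the number of libraries set the precision.

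Values were tested as log2(value + 1) with the R package limma (version 3.58.1, R 4.3.3), moderating variances along a trend with the mean, on 9016 genes with a mean of at least 50, with 8 group means and a term for the library prefix, and with Benjamini-Hochberg adjustment over all genes of a comparison. A gene was called at adjusted p under 0.05, and fold changes on this scale understate those of low genes. The fit left 11 residual degrees of freedom, 15.7 with the prior. The alternatives were the count models of edgeR (4.0.16) and DESeq2 (1.42.0) fitted to whole reads, other scalings, filters, pseudocounts, library weights, a replicate block and the removal of each library. The scripts were tested on simulated data. Members and lists were chosen with earlier results of these data known. The named genes were up to 8 called each way with the smallest adjusted p and at least 1 of each family, and some further genes were named after their values were seen. Promoter sequences are RefSeq's on GRCm38.p6.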

Additional observations from a re-analysis of the deposited data

Results flagged for a closer look

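The effect of the genotype differed between the R3 and R1/2 gates, averaged over both days, for 9 splicing factors by a test of the interaction (limma, adjusted over all 9016 genes), that is 9 of 36, a share near the 24.6% of all genes. Of the 9, 2 were higher and 7 lower, against 14 higher and 0 lower under equal totals, and 1 was called with a replicate block. On the log2 scale the Gata1s minus wild type difference in R3 less that in R1/2 was -0.43 for Hnrnpa0, -0.37 for Hnrnpab, -0.20 for Hnrnpf, -0.35 for Hnrnpul1, -0.45 for Sf3b5, -0.37 for Srsf4 and -0.39 for Srsf9. It was 0.31 for Hnrnph1 and 0.27 for Hnrnpr. In R3 the effect of the genotype differed between E14.5 and E12.5 for 2 factors, by 0.38 for Sf3a2 and -0.63 for Srsf7, while 26.8% of all genes were called. With a replicate block 0 were called, and under equal totals 0 were higher and 20 lower. In Gata1s E12.5 R1/2, the 1 group of 4 libraries, 39 single values were examined and 0 had a library far from the others, and groups of 2 or 3 libraries were not examined in this way.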

How the results depend on the processing

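The counts of splicing factors called between R3 and R1/2 in each genotype and day, and between the days in R3, stayed within 1.5 times under every alternative, though the split into higher and lower did not. Of 88 called differences of named genes, 37 kept direction and call under equal totals, 49 under quantile normalisation, 75 under upper-quartile scaling, 75 without the prefix term, 75 with library weights, 81 with edgeR, 87 with DESeq2 and 80 to 87 without a single library. Whether the replicate numbers pair the samples could not be settled. Of 59 pairs of libraries with the same number, 26 had r over 0.1, with a range of -0.20 to 0.51. Pairs between groups of 2 libraries give the same r for both numbers, and replicate 1 has the prefix JC in every wild type group. With a replicate block 64 of 88 were kept.

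For Gata1s against wild type at E12.5 R1/2 the count was 1, with 0 under no filter, upper-quartile scaling or no prefix term, and 2 under quantile normalisation, MS libraries only, DESeq2 or the compared groups only. At E12.5 R3 it was 12, with 20 under quantile normalisation, 28 under equal totals, 4 with the replicate block and 6 with the compared groups only. At E14.5 R1/2 it was 0, and 2 in MS libraries only. At E14.5 R3 it was 8, with 3 under quantile normalisation, 2 under equal totals, 5 without the prefix term, 1 with library weights and 1 with the compared groups only. The count for the mean of 4 pairs was 10, and 5 without the prefix term. For genotype by gate it was 9, with 14 under equal totals and 1 with the replicate block. Between the days in R1/2 it was 0, and 2 in MS libraries only. For genotype by day in R3 it was 2, with 11 under upper-quartile scaling, 16 under quantile normalisation, 20 under equal totals, 1 without the prefix term, 0 with the replicate block, 0 with library weights and 5 with DESeq2. Leaving out each library gave 0 to 2 at E12.5 R1/2, 5 to 10 at E14.5 R3, 0 to 3 between the days in R1/2 and 1 to 7 for genotype by day. In fits that left a group with 1 library, that library was assumed to vary like the others. The cause was not tested.

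Log2 differences that turned sign under equal totals were, for R3 against R1/2 in wild type E12.5 Hnrnph2 -0.041, Sf3b1 -0.31, Srsf4 -0.097 and Srsf5 -0.38, wild type E14.5 Hnrnph2 -0.15, Hnrnpul1 -0.14, Sf3b1 -0.51, Srsf4 -0.30 and Srsf5 -0.35, Gata1s E12.5 Hnrnpul1 -0.044, Sf3b1 -0.017 and Srsf4 -0.065, Gata1s E14.5 Hnrnph2 -0.18, Hnrnpul1 -0.25, Sf3b1 -0.42, Srsf4 -0.58 and Srsf5 -0.22. For E14.5 against E12.5 in R3 these were Hnrnph2 -0.21, Hnrnpk -0.37, Hnrnpul1 -0.20, Sf3b1 -0.32 and Srsf5 -0.16. For Gata1s against wild type at E12.5 R3 these were Hnrnpa0 0.096, Hnrnpf 0.24, Hnrnpk 0.24, Sf3a1 0.28, Sf3a2 0.074 and Srsf4 0.021. For Gata1s against wild type averaged over 4 pairs these were Hnrnpa3 0.0049. For the genotype by gate interaction these were Hnrnpf 0.043. Those that turned sign under quantile normalisation were, for R3 against R1/2 in wild type E12.5 Sf3b1 -0.32 and Srsf5 -0.24, wild type E14.5 Sf3b1 -0.46 and Srsf5 -0.17, Gata1s E12.5 Sf3b1 -0.055, Gata1s E14.5 Hnrnpul1 -0.077, Sf3b1 -0.43, Srsf4 -0.044 and Srsf5 -0.079. For E14.5 against E12.5 in R3 these were Hnrnph2 -0.013, Hnrnpk -0.30, Hnrnpul1 -0.089, Sf3b1 -0.25 and Srsf5 -0.045. For Gata1s against wild type at E12.5 R3 these were Hnrnpf 0.19, Hnrnpk 0.19 and Sf3a1 0.15. Under upper-quartile scaling Sf3a1 at E12.5 R3 between Gata1s and wild type was 0.015. Of the 17 under quantile normalisation, 5 stayed on the same side of the median of all genes, and equal totals and upper-quartile scaling move all genes of a library alike.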
